A study of Mus musculus with 6 samples.

Results

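The Wnt and β-catenin pathway genes described here were the protein-coding genes of the count table whose symbol begins with Wnt, Fzd, Sfrp, Dkk or Rspo and a digit, or with Tcf7, or is Dvl1, Dvl2, Dvl3, Axin1, Axin2, Lef1, Ctnnb1, Apc, Lrp5 or Lrp6. The rule found 54 of the 56748 genes in the table and used no measured value. Expression was measured by bulk RNA sequencing of total RNA from the hearts of 6 male mice, 3 Pontin cTG and 3 WT littermates. In Pontin cTG mice, which are on a C57Bl/6 background, the αMHC promoter drives human Pontin cDNA with a flag tag in cardiomyocytes (Pontin is the product of Ruvbl1), and the WT littermates lack the transgene. All 6 mice were 10 weeks old when they were given angiotensin II (Ang-II), at 1.5 mg/kg body weight per day from a mini-osmotic pump for 14 days, so both groups carried the hypertensive stimulus and no heart without Ang-II was analysed here.

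Wnt ligands are secreted glycoproteins that bind a Frizzled receptor (Fzd genes), in the canonical branch together with the co-receptor Lrp5 or Lrp6. Without a ligand, cytoplasmic β-catenin (Ctnnb1) is held by a complex built on Axin and Apc, is phosphorylated and is degraded. When a ligand binds, Dishevelled (Dvl genes) recruits Axin to the receptor, β-catenin accumulates, enters the nucleus and activates transcription with factors of the Tcf and Lef family. Sfrp and Dkk proteins restrain the pathway outside the cell, and R-spondins amplify it by sparing Frizzled receptors from removal. In the heart the pathway is known from valve and chamber development, and in adult hearts it becomes active again after injury and under haemodynamic load. Pontin is known as a protein that binds β-catenin, and the study found it mainly in the cytosol of cultured cardiomyocytes. The study also measured a β-catenin reporter among others in cultured H9c2 cells. Of these reporters it describes a change for YAP and, with knockdown only, for NFAT. The comparison of Pontin cTG with WT asks whether RNA of the pathway differs in Ang-II-treated hearts that overexpress Pontin.

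The libraries held 12436822 to 16888124 counts, of which the 54 genes took 0.0849% to 0.0953%. Pontin cTG replicate 2 stood apart from the other libraries on the first principal component of all tested genes, at 50.85 against -23.06 to 16.16, and it held the lowest or highest value of the 6 libraries for 17 of the 29 pathway genes tested (58.6%, against 60.9% of all tested genes), so for the genes given by heart the estimate without it is also printed where it moved by over 1.5 times. Summed levels of cardiomyocyte markers (a level being normalised CPM per kilobase of gene length) were at 14853 to 15965 in every heart, whereas T cell and adipocyte markers were near 0. Summed atrial markers were at 127, 71.4 and 151 in WT and 98.9, 633 and 30.2 in Pontin cTG, highest in Pontin cTG replicate 2, but nearly all of this was Nppa, a gene also expressed in stressed ventricles, since Myl7, Sln and Mybphl had 0 to 6 raw counts in each library. The mouse Ruvbl1 gene had 216, 221 and 217 normalised counts (counts scaled to a common library size) in WT and 249.9, 250.0 and 240.0 in Pontin cTG (log2 fold change 0.18, SE 0.12), and reads of the human cDNA need not be counted there, so this is only a partial check of the transgene.

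No pathway gene passed the test between Pontin cTG and WT. Of the 54 genes, 29 had enough counts to be tested, 16 had too few and 9 had no count in any library. The log2 fold changes (Pontin cTG over WT) of the 29 lay between -0.45 for Fzd7 and 0.74 for Dkk3, 13 being above 0 and 16 below, with a median of -0.012 against 0.0013 over all 13888 genes tested. By the quasi-likelihood test of edgeR, adjusted over all genes after Benjamini and Hochberg, 0 of 13888 genes (0%) and 0 of the 29 had an adjusted p under 0.05, every adjusted p of the 29 being 0.999. DESeq2 called 1 gene in all and 0 of the 29. Without adjustment, 285 genes had an edgeR p under 0.05 (2.05%), of which 142 (1.02%) were higher and 143 (1.03%) lower in Pontin cTG. Among the 29 only Fzd7 did, with an unadjusted p of 0.0422.

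Some receptor and core genes separated the groups without passing the test. For Fzd7, Lrp6, Fzd3 and Ctnnb1 every Pontin cTG heart lay below every WT heart, and for no tested pathway gene did every Pontin cTG heart lie above. These 4 of 29 genes are 13.8%, beside 8.33% of all tested genes whose groups do not overlap in either direction and 3.63% with Pontin cTG lower (4.7% with Pontin cTG higher). The data limit most of these differences to within 2-fold but do not exclude smaller ones. The 95% interval of the fold change lay within 2-fold in either direction for 21 of the 29 genes (72.4%, against 80.2% of all tested genes). For the rest, among them Sfrp2, Wnt2b and Dkk3, larger differences are not excluded. Since whole hearts were sequenced, fewer cells of a type and less RNA per cell cannot be told apart in any of these values.

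**Figure D1:**
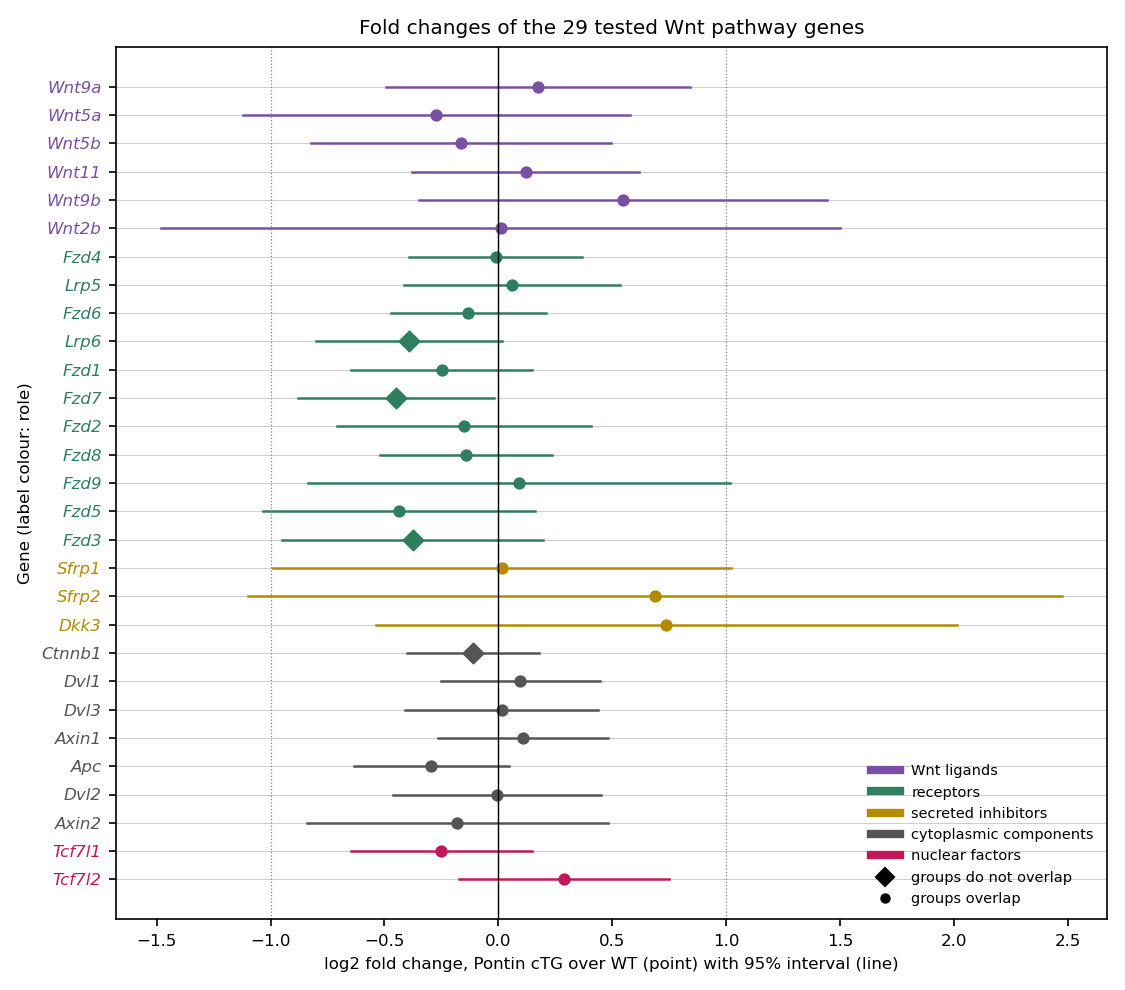
The log2 fold change of Pontin cTG over WT (horizontal axis) is plotted for each of the 29 tested genes (vertical axis, label colour for the role in the pathway), with the 95% interval as a line; diamonds mark genes whose groups do not overlap and dotted lines mark a 2-fold difference. The estimates run from -0.45 for Fzd7 to 0.74 for Dkk3, and the widest intervals belong to Sfrp2, Wnt2b, Dkk3 and Sfrp1.

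Of the 19 Wnt ligand genes, 6 were tested, 8 had too few counts and 5 (Wnt3, Wnt3a, Wnt7b, Wnt8a and Wnt10a) had no count. A few ligands made up most of the ligand RNA. On the scale of levels, Wnt9a took 29.0% of the summed level of all ligands, Wnt5a 23.8%, Wnt5b 20.8% and Wnt11 14.9%. Their mean levels of 1.96, 1.61, 1.41 and 1.01 are in that order, but neighbours in it overlapped between hearts. The summed ligand level was 7.28, 5.48 and 7.42 in WT and 6.94, 5.41 and 8.05 in Pontin cTG, with replicate 2 the lowest heart of both groups. A count of 0 in all 6 libraries allows up to 3 counts of 85154531, or 0.0352 CPM, which covers counting error only.

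Wnt9a, a ligand known from joint development, had 91.4, 69.5 and 98.4 normalised counts in WT and 104, 59.1 and 129 in Pontin cTG. The groups overlapped, and both replicate 2 hearts were the lowest of their group. Its log2 fold change was 0.17 (SE 0.30, 95% interval -0.50 to 0.84; two-sided exact permutation p = 0.8), moving to 0.44 without Pontin cTG replicate 2 and to -0.08 when replicate 3 of that group was left out. Wnt5a, the best known ligand of the β-catenin-independent branch, had 232, 144 and 206 normalised counts in WT and 198, 68.5 and 216 in Pontin cTG. Here too the replicate 2 hearts were lowest, and the single value of 68.5 set the estimate of -0.27 (SE 0.38, 95% interval -1.12 to 0.58; two-sided exact permutation p = 0.6), which was 0.09 without Pontin cTG replicate 2.

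Wnt5b, a close relative of Wnt5a, had a log2 fold change of -0.16 (SE 0.29), and Wnt11, a non-canonical ligand needed in early heart formation, one of 0.12 (SE 0.22). Wnt9b, at 9.91 to 20.5 normalised counts, had 0.55 (SE 0.40), and Wnt2b had 0.01 (SE 0.66), which became -1.14 without Pontin cTG replicate 2. Wnt2, a ligand of the embryonic heart, stayed below the filter, with 1, 3 and 2 raw counts in WT and 6, 9 and 5 in Pontin cTG. Those groups do not overlap, and a fit without the filter gave a log2 fold change of 1.36 (SE 0.88, unadjusted p = 0.126, adjusted p = 0.938 by edgeR). Wnt2 was singled out after its values were seen.

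Some ligand genes also lie in neighbouring pairs in the genome, and the neighbours of the tested genes Wnt9a and Wnt9b had no count. With coordinates of the table's build, GRCm39, Wnt3a (chr11:59138859-59181578, minus strand) and Wnt9a (chr11:59197754-59224378, plus strand) are 16.2 kb apart with no other protein-coding gene between them, yet the 6 libraries held 0 counts of Wnt3a and 558 of Wnt9a. Wnt9b (chr11:103618190-103640647, minus strand) and Wnt3 (chr11:103664976-103708783, plus strand), 24.3 kb apart, held 90 and 0 counts. Of the other 2 such pairs, Wnt10b and Wnt1 on chromosome 15 held 25 and 4 counts and Wnt6 and Wnt10a on chromosome 1 held 7 and 0. All genes of these 2 pairs were below the filter, with too few counts to compare within a pair.

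**Figure D2:**
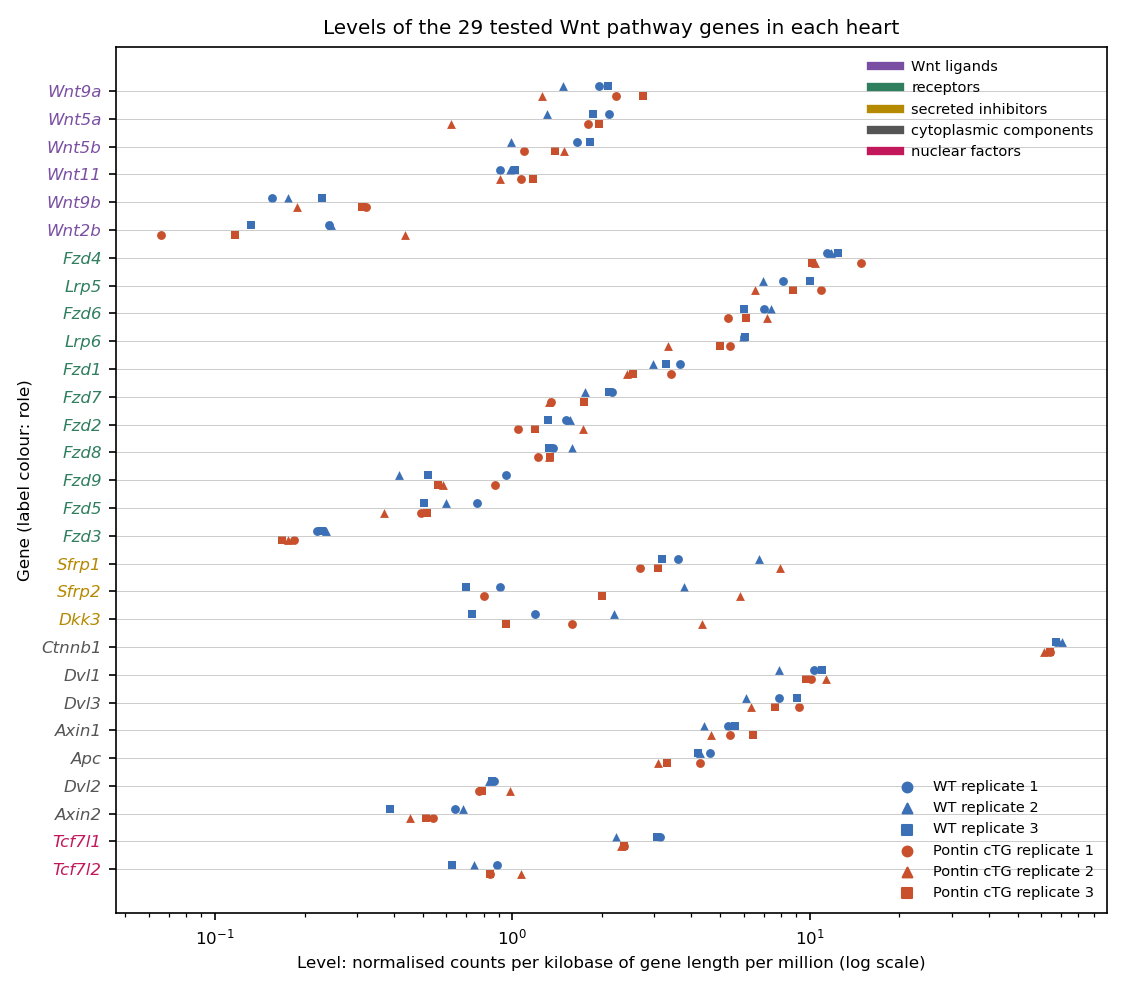
The level of each of the 29 tested genes (vertical axis) is plotted for each heart on a log scale, in normalised CPM per kilobase of gene length; blue marks are WT, orange marks Pontin cTG and the marker shape gives the replicate number. Ctnnb1 lies far above the other genes, at mean levels of 68.3 in WT and 63.2 in Pontin cTG, and for Sfrp1, Sfrp2 and Dkk3 the replicate 2 triangles lie to the right in both groups.

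Of the 12 receptor genes, 11 were tested and Fzd10 had 1 count in all. Of the 11, 9 had estimates below 0 and 2 above, with a median log2 fold change of -0.15, and 3 of the 11 (27.3%) had groups that do not overlap, all lower in Pontin cTG. Among all tested genes, 8.33% had groups that do not overlap (3.63% lower in Pontin cTG) and 49.8% had an estimate below 0. The summed receptor level was 43.2, 41.2 and 43.9 in WT and 45.0, 35.4 and 38.1 in Pontin cTG, so the groups overlapped through Pontin cTG replicate 1.

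Fzd4, a Frizzled receptor of vascular endothelium, had the highest level of the receptors. It had 1082, 1113 and 1182 normalised counts in WT and 1404, 986 and 959.8 in Pontin cTG, a level of 11.9 ± 0.536 against 11.8 ± 2.63 (SD, n = 3 each). One Pontin cTG heart lay above and the others below all WT hearts, and the log2 fold change was -0.01 (SE 0.17, 95% interval -0.39 to 0.37), or 0.07 without Pontin cTG replicate 2. The co-receptor Lrp5 came next, with 1113, 957 and 1379 normalised counts in WT and 1497, 898 and 1207 in Pontin cTG. The groups overlapped fully, with a log2 fold change of 0.06 (SE 0.21, 95% interval -0.41 to 0.54), or 0.23 without Pontin cTG replicate 2. Fzd6 followed, at a level of 6.81 ± 0.713 in WT and 6.21 ± 0.937 in Pontin cTG (SD, n = 3 each).

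Lrp6, the co-receptor of canonical Wnt signalling closest to Lrp5, had 1154, 1149 and 1170.4 normalised counts in WT and 1042, 644 and 959 in Pontin cTG. The WT hearts lay close together, and Pontin cTG replicate 2 was by far the lowest. The log2 fold change was -0.39 (SE 0.18, 95% interval -0.80 to 0.01, edgeR p = 0.0571 unadjusted and 0.999 adjusted; two-sided exact permutation p = 0.1, the smallest that 3 against 3 hearts allow), and it was -0.21 without Pontin cTG replicate 2. In GRCm39 the gene spans chr6:134423439-134543928 on the minus strand.

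Fzd7, a receptor that can serve both the canonical and the non-canonical branch, lies at chr1:59521583-59526114 on the plus strand. It had 138, 112 and 135 normalised counts in WT and 85.9, 84.8 and 111 in Pontin cTG. The groups were separated by a narrow margin, the highest Pontin cTG heart being at 111 and the lowest WT heart at 112. The log2 fold change was -0.45 (SE 0.19, 95% interval -0.88 to -0.02, edgeR p = 0.0422 unadjusted and 0.999 adjusted; two-sided exact permutation p = 0.1), and it lay between -0.59 and -0.38 with any one library left out.

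Fzd3, a receptor of planar cell polarity signalling, was much less abundant than Fzd7, at a mean level of 0.202 against 1.74, and its hearts lay close together within each group. Its raw counts were only 36, 38 and 37 in WT and 34, 37 and 35 in Pontin cTG. Counting error alone is wider than that spread, so the closeness does not show precision. It had 39.6, 42.6 and 41.4 normalised counts in WT and 33.2, 31.7 and 30.3 in Pontin cTG, with every Pontin cTG heart below every WT heart. Fzd3 had a log2 fold change of -0.38 (SE 0.25, 95% interval -0.95 to 0.20, edgeR p = 0.172 unadjusted; two-sided exact permutation p = 0.1). The remaining receptors had overlapping groups. Their log2 fold changes were -0.44 (SE 0.26) for Fzd5, -0.25 (SE 0.18) for Fzd1, -0.15 (SE 0.25) for Fzd2 (-0.39 without Pontin cTG replicate 2), -0.14 (SE 0.17) for Fzd8 and 0.09 (SE 0.41) for Fzd9.

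**Figure D3:**
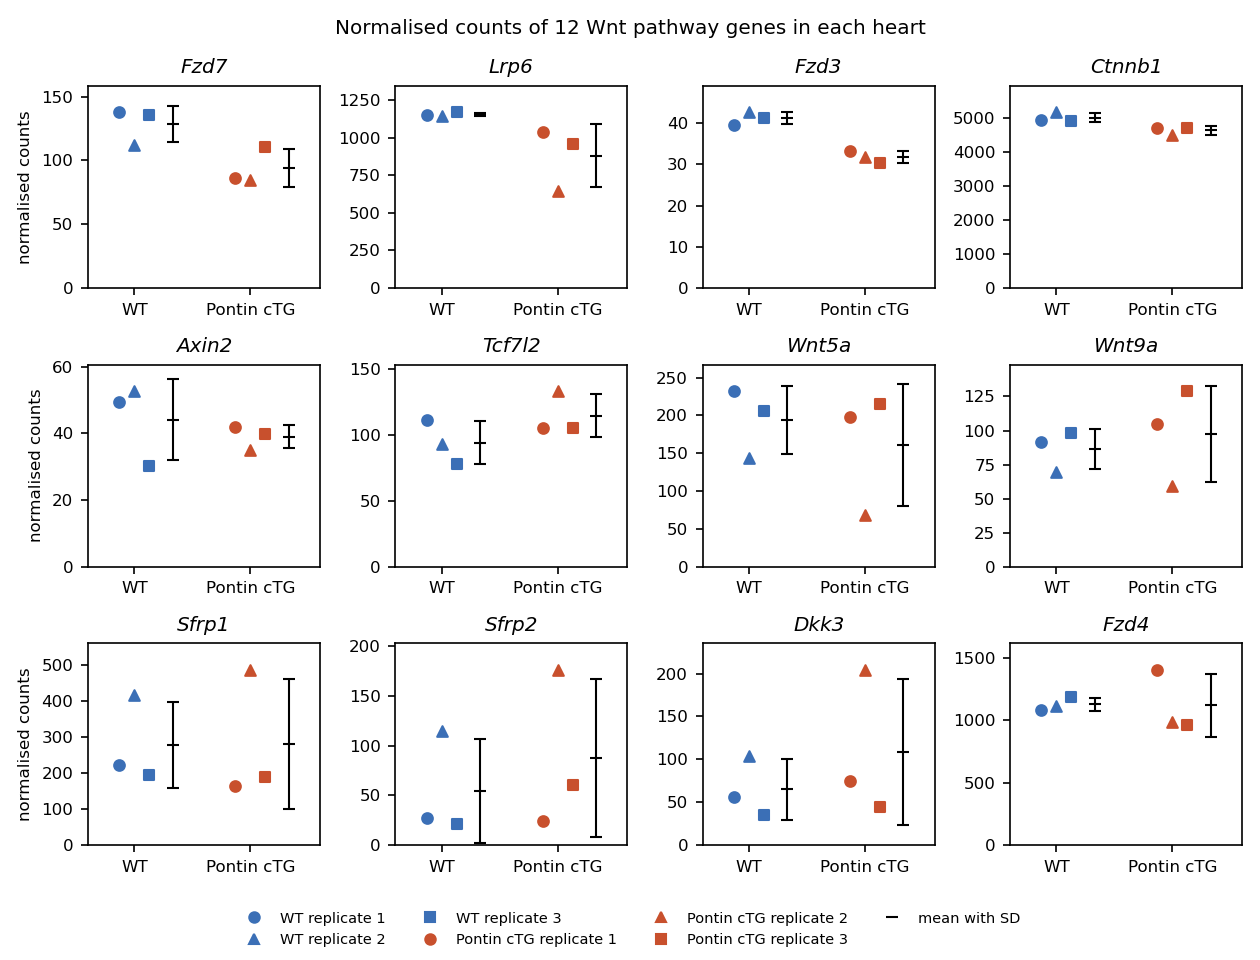
Normalised counts (vertical axes, from 0) of 12 pathway genes are plotted for each heart, WT in blue and Pontin cTG in orange, with the replicate number as marker shape and the mean with SD (n = 3) in black. Fzd7, Lrp6, Fzd3 and Ctnnb1 have Pontin cTG hearts below all WT hearts, whereas Sfrp1, Sfrp2 and Dkk3 are highest in replicate 2 of both groups.

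The promoters of 4 genes are printed because each carries a different result: Fzd7 as the receptor with the lowest p, Ctnnb1 as the most abundant gene, Axin2 as the most general target of the pathway and Sfrp2 as a secreted inhibitor that ranged from 21.2 to 176 normalised counts between hearts. Each is the 250 bases before the annotated start in RefSeq (GRCm38.p6, another build than that of the table), 5′ to 3′ on the gene's strand, which is the plus strand in all 4: chr1:59481897-59482146 for Fzd7, chr9:120933150-120933399 for Ctnnb1, chr11:108920099-108920348 for Axin2 and chr3:83766071-83766320 for Sfrp2. Capitals mark a match on either strand to CTTTG with AA, AT, TA or TT after it, the core letters that Tcf and Lef factors are known to bind.
Fzd7: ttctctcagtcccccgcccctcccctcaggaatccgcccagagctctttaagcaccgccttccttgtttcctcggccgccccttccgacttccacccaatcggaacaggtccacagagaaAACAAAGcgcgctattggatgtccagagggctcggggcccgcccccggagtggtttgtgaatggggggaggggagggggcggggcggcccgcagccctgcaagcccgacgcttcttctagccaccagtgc
Ctnnb1: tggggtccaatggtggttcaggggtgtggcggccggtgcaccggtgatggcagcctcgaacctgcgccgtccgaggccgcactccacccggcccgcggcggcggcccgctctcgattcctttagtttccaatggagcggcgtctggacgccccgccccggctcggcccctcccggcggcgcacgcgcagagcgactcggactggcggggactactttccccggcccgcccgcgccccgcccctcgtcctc
Axin2: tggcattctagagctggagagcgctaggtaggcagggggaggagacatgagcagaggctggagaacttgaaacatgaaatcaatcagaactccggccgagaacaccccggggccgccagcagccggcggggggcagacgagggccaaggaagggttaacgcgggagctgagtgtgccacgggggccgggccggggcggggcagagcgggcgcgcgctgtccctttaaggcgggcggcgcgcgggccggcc
Sfrp2: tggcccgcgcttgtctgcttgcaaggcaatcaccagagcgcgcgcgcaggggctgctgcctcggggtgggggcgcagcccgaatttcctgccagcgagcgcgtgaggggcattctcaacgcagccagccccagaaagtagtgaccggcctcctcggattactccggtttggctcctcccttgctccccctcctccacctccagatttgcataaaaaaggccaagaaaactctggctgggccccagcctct

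Only the Fzd7 window of these 4 held a match, read as AACAAAG on the printed strand and starting 130 bases before the start. RefSeq windows were found for 36 of the 54 genes, 45 windows in all, and 6 of the 45 (13.3%) held a match, against 4874 of 32851 windows of all genes (14.8%). The pathway windows were richer in G and C, with a median GC content of 69.2% against 52.4%. A match describes letters only and does not show a bound site.

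Of the 8 secreted inhibitor genes, Sfrp1, Sfrp2 and Dkk3 were tested, Sfrp4, Sfrp5 and Dkk2 had too few counts, and Dkk1 and Dkk4 had none. All 3 tested estimates were above 0, and all 3 were below 0 when Pontin cTG replicate 2 alone was left out. When both replicate 2 libraries were left out, a choice made after seeing the data, the log2 fold change was 0.81 for Sfrp2, 0.40 for Dkk3 and -0.23 for Sfrp1. The summed level of the 8 genes was 6.06, 13.2 and 4.84 in WT and 5.71, 18.5 and 6.50 in Pontin cTG, with replicate 2 the highest heart of both groups. Summed fibroblast markers (6 of 6 detected) were also highest in these hearts, at 155, 200.0 and 132 in WT and 147, 192 and 138 in Pontin cTG on the same scale. The pattern was not particular to fibroblasts. Summed macrophage markers shared it, at 64.4, 104 and 72.1 in WT and 78.7, 83.8 and 50.8 in Pontin cTG. So did cardiomyocyte markers, by a small relative margin, at 15049, 15953 and 15031 in WT and 14978, 15965 and 14853 in Pontin cTG. Pontin cTG replicate 2 also had the highest summed endothelial markers, at 186 against 129 to 154 in the other hearts, and the highest atrial sum, 633 against 30.2 to 151, whereas WT replicate 2 was the lowest WT heart in both. The atrial sum was nearly all Nppa, as given above, and need not stand for atrial cells. The part of any of these cell types in the result was not tested.

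Sfrp1, a soluble protein with a Frizzled-like domain that binds Wnt ligands, had 222, 416 and 196 normalised counts in WT and 165, 487 and 189.7 in Pontin cTG. Replicate 2 of each group was far above its group mates, and the groups overlapped. Its log2 fold change was 0.02 (SE 0.44, 95% interval -0.99 to 1.02), and leaving out replicate 2 of Pontin cTG made it -0.65, leaving out that of WT 0.43. Sfrp2, a relative expressed in activated fibroblasts, had 27.5, 114 and 21.2 normalised counts in WT and 24.4, 176 and 60.6 in Pontin cTG. Its log2 fold change of 0.69 (SE 0.78, 95% interval -1.10 to 2.47) was -0.34 when replicate 2 of Pontin cTG was left out and 1.84 when that of WT was.

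Dkk3, a divergent member of the Dickkopf family, had 56.2, 104 and 34.7 normalised counts in WT and 75.2, 205 and 45.0 in Pontin cTG. Its log2 fold change of 0.74 (SE 0.56, 95% interval -0.54 to 2.01) was the largest of the 29 in the reported edgeR fit, and it became -0.12 without Pontin cTG replicate 2. None of the 4 R-spondin genes was tested. Rspo1 had 2, 11 and 3 raw counts in WT and 2, 6 and 9 in Pontin cTG, Rspo3 had 0, 2 and 0 in WT and 0, 0 and 1 in Pontin cTG, and Rspo2 and Rspo4 had none.

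**Figure D4:**
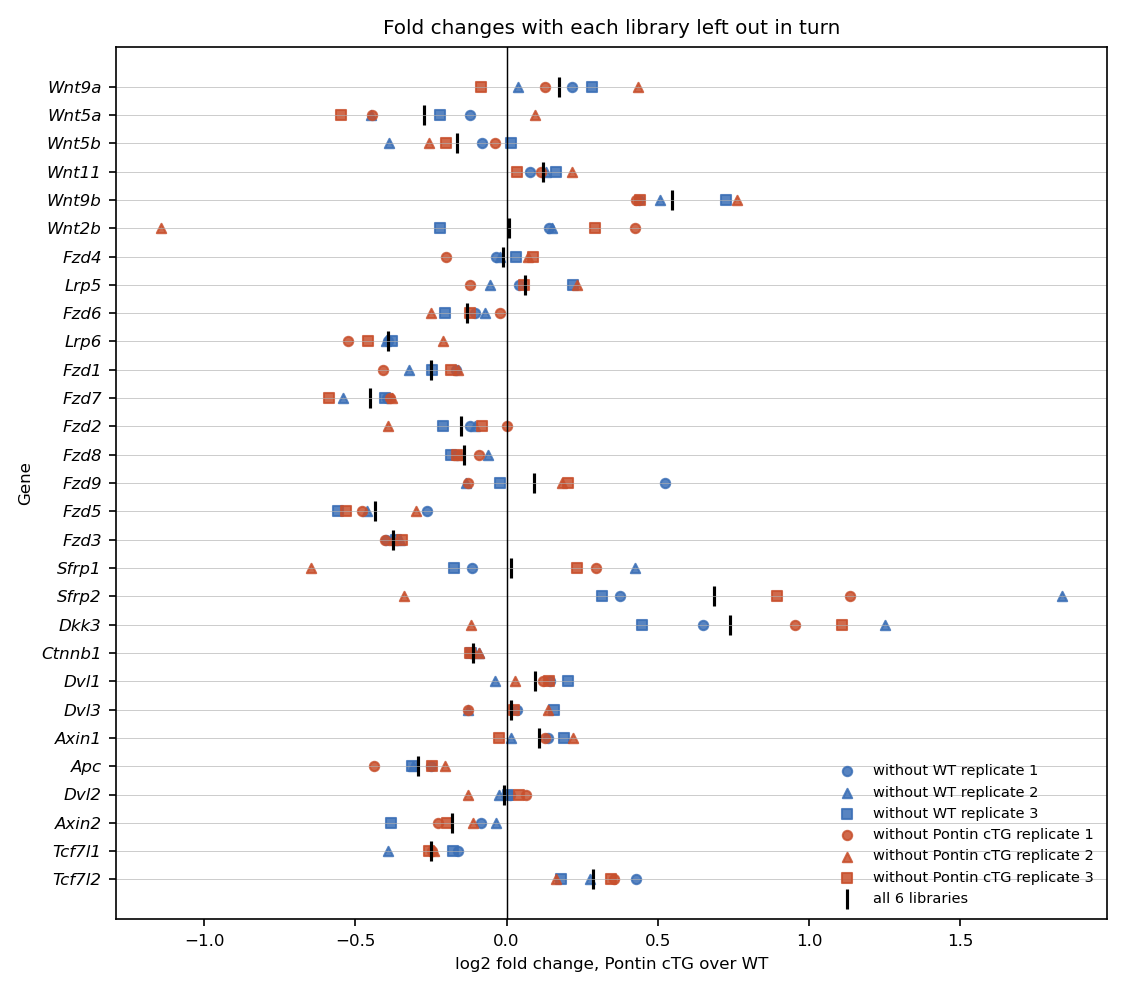
The log2 fold change of Pontin cTG over WT (horizontal axis) is plotted for the 29 tested genes with all 6 libraries (black bar) and with each library left out in turn (blue for WT, orange for Pontin cTG, shape for the replicate number). Sfrp1, Sfrp2, Dkk3, Wnt2b, Wnt5a and Fzd4 cross 0 without Pontin cTG replicate 2, Fzd4 from an estimate near 0, whereas Ctnnb1 and Fzd3 hardly move.

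All 7 cytoplasmic genes were tested, with 3 estimates above 0, 4 below and a median log2 fold change of -0.0072. Ctnnb1, the β-catenin gene at chr9:120758282-120789573 on the plus strand, made up 69.9% of their summed level. It had 4927, 5154 and 4911 normalised counts in WT and 4699, 4479 and 4691 in Pontin cTG, a mean of 4997 ± 136 against 4623 ± 125 (SD, n = 3 each). Every Pontin cTG heart lay below every WT heart, but the difference was small, with a log2 fold change of -0.11 (SE 0.13, 95% interval -0.40 to 0.18, edgeR p = 0.402 unadjusted; two-sided exact permutation p = 0.1). β-catenin also belongs to cell junctions and its activity is set mainly by protein stability, neither of which RNA levels show.

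Dvl1, a Dishevelled gene, had 725, 553 and 775 normalised counts in WT and 713, 796 and 683 in Pontin cTG, with overlapping groups and a log2 fold change of 0.10 (SE 0.15), or 0.03 without Pontin cTG replicate 2. The other Dishevelled genes were nearer 0, at 0.01 (SE 0.19) for Dvl3 and -0.01 (SE 0.20) for Dvl2. Apc, the scaffold of the β-catenin destruction complex, had an estimate of -0.29 (SE 0.15, 95% interval -0.63 to 0.05), and Axin1, its partner, one of 0.11 (SE 0.16). Axin2, which is both part of the destruction complex and induced by β-catenin in most tissues, had 49.6, 52.7 and 30.2 normalised counts in WT and 42.0, 35.1 and 39.8 in Pontin cTG. The Pontin cTG hearts lay within the range of the WT hearts, and the log2 fold change was -0.18 (SE 0.29, 95% interval -0.84 to 0.48; two-sided exact permutation p = 0.6), or -0.11 without Pontin cTG replicate 2.

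Among the 4 nuclear factors, Tcf7l1 and Tcf7l2 were tested. Tcf7l1, which acts mostly as a repressor, had 173, 123 and 169 normalised counts in WT and 131, 128 and 132 in Pontin cTG, with a log2 fold change of -0.25 (SE 0.18, 95% interval -0.65 to 0.15; two-sided exact permutation p = 0.4). WT replicate 2 was the lowest of all hearts, so the groups overlapped. Tcf7l2, a factor that can activate or repress, had 111, 93.1 and 78.3 normalised counts in WT and 105, 134 and 106 in Pontin cTG, with a log2 fold change of 0.29 (SE 0.20, 95% interval -0.17 to 0.75; two-sided exact permutation p = 0.3), or 0.16 without Pontin cTG replicate 2. Tcf7 and Lef1, the members of the family first found in lymphocytes, were scarce, with 4, 13 and 11 raw counts of Tcf7 in WT and 6, 10 and 10 in Pontin cTG, and 1, 1 and 0 of Lef1 in WT and 1, 4 and 1 in Pontin cTG.

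Other genes of the pathway, which the symbol rule leaves out, were compared in the same fit. Of 54 such genes (secretion factors, non-canonical receptors, kinases, co-activators and co-repressors), 47 were tested and 0 passed, 24 estimates being above 0 and 23 below, with a median log2 fold change of 0.00084. Groups did not overlap for 2 of the 47 (4.26%, below the 8.33% of all tested genes), Ror1 and Apcdd1. Ror1, a receptor tyrosine kinase that binds Wnt5a, had 163, 125 and 115 normalised counts in WT and 80.1, 84.8 and 91.8 in Pontin cTG. Every Pontin cTG heart lay below every WT heart, with a two-sided exact permutation p of 0.1. The log2 fold change of -0.65 (SE 0.19, 95% interval -1.09 to -0.21, edgeR adjusted p = 0.999, unadjusted 0.00871) stayed between -0.74 and -0.48 with any one library left out. Apcdd1, a membrane-bound Wnt inhibitor, had 76.0, 62.8 and 66.0 normalised counts in WT and 44.9, 56.5 and 44.2 in Pontin cTG, with a log2 fold change of -0.49 (SE 0.23).

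Genes that β-catenin is known to induce in other tissues were read as a list of 20, of which 13 were tested and 0 passed. Of the 13 estimates, 3 were above 0 and 10 below, with a median log2 fold change of -0.18, and the groups did not overlap for Bambi and Apcdd1 (2 of 13, 15.4%), both lower in Pontin cTG. Over all tested genes 3.63% were so separated with Pontin cTG lower, 8.33% in either direction, and 49.8% of estimates were below 0. Of the 20 genes, 4 are also among the 54 above and 7 are also in the list of other pathway genes, so the lists are not separate evidence. Bambi, a decoy receptor of TGF-β signalling, had 213, 262 and 215 normalised counts in WT and 150.4, 193 and 191 in Pontin cTG. Its log2 fold change was -0.37 (SE 0.16, edgeR adjusted p = 0.999, unadjusted 0.0486). Summed macrophage markers were at 64.4, 104 and 72.1 in WT and 78.7, 83.8 and 50.8 in Pontin cTG, with 4 of 5 estimates below 0; their part in these values was not tested.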

How the data were processed

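Whole-heart total RNA of 3 Pontin cTG and 3 WT mice, all treated with Ang-II, was sequenced, and the deposited table holds raw counts per gene in 6 library columns (0 columns matched no sample). The submitters' processing notes name fastp, HISAT2, featureCounts, DESeq2 and GRCm39, whereas the methods of the study name Trimmomatic, STAR and mm10 with Gencode annotation. Only 1 of the 54 genes has the GRCm38 coordinates in the table, so its coordinates are given as GRCm39. The kit does not mark strand, so overlapping antisense transcripts cannot be told apart. The methods mention an outlier that was left out without naming it, and all 6 deposited libraries were used here.

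Counts were filtered with filterByExpr (minimum count 10), scaled by TMM and tested with edgeR 4.0.16 (quasi-likelihood, robust) in R 4.3.3, in a model of genotype alone. The p-values were adjusted over the 13888 genes after Benjamini and Hochberg (threshold 0.05). Normalised counts are TMM-scaled to the mean library; levels are divided by the gene length in the table. The SE and the 95% interval come from the quasi-likelihood F statistic. Single genes were also tested by a two-sided exact permutation test on log2(normalised counts + 1), which cannot go below 0.1 with 3 against 3. The fits were checked on simulated data. Limma 3.58.1 (voom with sample quality weights, called limma-voom below) and DESeq2 1.42.0 were alternatives.

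The labels call the samples biological replicates. No pair of libraries was alike within sampling noise (lowest chi-square per gene 5.539). The genes and lists were chosen with earlier results of these data known. Values by heart are given for Ctnnb1, Axin2, Lef1 and Tcf7l2, for the 2 genes of each role with the highest level, and for tested genes with an unadjusted p under 0.05 or groups that do not overlap; of the other lists, only the latter kinds are named. Dkk3, Tcf7 and Wnt2 are given beyond that rule, chosen after their values were seen.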

Additional observations from a re-analysis of the deposited data

How the results depend on the processing

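Across 15 alternatives planned and 1 chosen after seeing the data (leaving out both replicate 2 libraries), 0 pathway genes, 0 other pathway genes and 0 target genes were called, the lowest adjusted p of any of the 29 tested genes being 0.855. Of those 29, 13 kept their sign in every alternative in which they were tested (Wnt9b in 15 of 16, not with at least 10 counts in every library, and the others in all 16), 10 lower in Pontin cTG (Fzd7, Lrp6, Fzd3, Fzd5, Fzd1, Fzd6, Fzd8, Ctnnb1, Apc and Tcf7l1) and 3 higher (Wnt9b, Wnt11 and Tcf7l2). The alternatives reuse the same hearts, so a kept sign is not separate evidence, and no share over all genes is given beside this count. Over all genes, the number called was 1 with DESeq2, 3 with limma-voom (sample quality weights) and 3 without a filter on low counts. It was 0 to 3 with 1 library left out (3 without Pontin cTG replicate 2) and 6 without both replicate 2 libraries. The number of pathway genes at an unadjusted p under 0.05, 1 in the reported fit, was 0 with DESeq2, 4 with limma-voom (Fzd7, Lrp6, Tcf7l1 and Wnt9b), 2 with library size alone, 2 without a filter, 0 to 3 with 1 library left out and 2 without both replicate 2 libraries; the cause was not tested. It was 0 without WT replicate 1, WT replicate 3 or Pontin cTG replicate 2. Over all genes, the count at that p was 285 of 13888 in the reported fit, 219 of 13888 with DESeq2 and 794 of 13888 with limma-voom. The all-gene count was 305 of 13888 with library size alone and 478 of 25636 without a filter, where 45 pathway genes were tested. With 1 library left out it ran from 122 of 14401 to 686 of 13978, and without both replicate 2 libraries it was 572 of 13794. The median log2 fold change of the pathway genes, -0.012 as reported, was -0.12 with limma-voom and -0.10 with at least 10 counts in every library, and -0.13 to -0.060 with 1 library left out. It was 0.015 with library size alone, the only alternative above 0. Over all genes tested, the median was 0.0013 as reported, -0.0092 with limma-voom, 0.0070 with at least 10 counts in every library and 0.031 with library size alone.

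Replicate numbers are shared between the groups, and the deviations of same-numbered libraries correlated at 0.069, 0.43 and 0.19. The labels do not say that same-numbered hearts are paired, so the reported fit used no block. These correlations cannot settle whether they are. With the replicate number as a block, 0 genes were called in all and 5 pathway genes had an unadjusted p under 0.05 (Apc, Dkk3, Fzd7, Lrp6 and Sfrp2). Over all genes 499 of 13888 had such a p with the block, against 285 of 13888 in the reported fit. The median log2 fold change of the pathway genes was -0.11 with the block. The estimates were 0.68 (SE 0.30) for Sfrp2, 0.63 (SE 0.22) for Dkk3 and -0.07 (SE 0.16) for Sfrp1. Without the block the SE of these genes were 0.78, 0.56 and 0.44. With 3 hearts a group and a biological coefficient of variation of 0.197, differences as small as those of Ctnnb1 were not resolved, and genes with few counts, among them the R-spondins, Lef1 and most ligands, could not be compared.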
